A study of Mus musculus with 4 samples.

Results

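The genes described here encode the Toll-like receptors, the adaptors and kinases below them, and the NF-kB transcription factors with their inhibitors. They were measured in LSK cells, the fraction of blood-forming tissue that lacks lineage markers and carries Sca-1 and Kit, which holds stem cells and multipotent progenitors. Members were chosen by gene symbol alone: Tlr or Traf followed by a digit, symbols starting with Nfkb, Irak or Tnfaip, and a fixed set of named adaptors, kinases, co-receptors and NF-kB subunits. This took 57 of the 20207 genes in the deposited table, and 34 of the 57 had a mean of at least 1 RPKM (reads scaled to transcript length and library size) over the libraries. The symbols Tab1 and Tab2 of the rule do not occur in the table, which lists these genes under the older symbols Map3k7ip1 and Map3k7ip2. They are described beside the members and are not counted among them.

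The groups were Brpf1-null and wild-type LSK cells from fetal livers of mouse embryos at E14.5. Each labelled sample was a pool of about 10000 cells from 4 embryos, and the labels give 2 samples per genotype, in 2 pairs. The labels state the genotype without saying how the Brpf1 allele was deleted or in which cells, and the sources used here give no strain, sex or litter. Brpf1 encodes a chromatin reader that anchors MYST-family histone acetyltransferase complexes. The tables of both pairs held the same values, so there is 1 set of values per genotype, called a library here, with no replicate spread, and no p-value was computed. Whether these values come from 1 of the pairs or from both pairs merged is not stated.

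Toll-like receptors bind microbial lipids, proteins and nucleic acids. Most of them signal through the adaptor MyD88 to IRAK kinases and the ubiquitin ligase TRAF6, which activate TAK1 and the IkB kinase (IKK). IKK marks the IkB proteins for destruction, and the NF-kB dimers that IkB had held in the cytoplasm enter the nucleus. NF-kB then induces genes of its own inhibitors, among them Nfkbia and Tnfaip3, which closes the circuit. Blood stem and progenitor cells carry some of these receptors, and their ligands can push progenitors towards myeloid cell production.

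The Brpf1-null library was estimated to hold 22112619 reads and the wild-type library 23517337, from the spacing of low values. Brpf1 itself was at 2.15 RPKM in the Brpf1-null library, against 2.59 RPKM in wild-type, a value over the whole gene that does not resolve a deleted part. The genes that define the sort were present in both: Kit was at 21.3 and Ly6a (Sca-1) at 9.51 RPKM in the Brpf1-null library, against 25.6 and 10.6 RPKM in wild-type. Stem and multipotent progenitor markers did not all match. Of a list of 9 that includes Kit and Ly6a, 8 averaged 1 RPKM or more. By the 1.5-fold call defined below, 9.42% of all 9380 genes with such a mean were lower in the Brpf1-null library and 14.1% higher. Of the 8 markers, 3 (37.5%) were lower and 1 (12.5%) was higher. The lower ones were Mecom (1.03 RPKM against 4.255 in wild-type), Meis1 (17.0 against 44.2) and Hlf (3.37 against 6.835). Cd34 was higher, at 179 RPKM against 117. The other 4 were within 1.5-fold. Markers of other cells also differed between the libraries. The summed level of 7 hepatocyte markers was 340 RPKM in the Brpf1-null library and 1332 RPKM in wild-type, that of 6 erythroid markers 83.5 and 579 RPKM, and that of 8 B-cell markers 81.9 and 270.0 RPKM. In such bulk RNA, fewer cells of a type and less RNA per cell cannot be told apart.

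Across the pathway most transcripts differed by less than 1.5-fold. The members with the largest log2 changes were the receptors Tlr12 and Tlr2 and the adaptor Traf4, higher in the Brpf1-null library, and the inhibitor Nfkbia, lower in it. A gene is called higher or lower where log2((Brpf1-null RPKM + 1)/(wild-type RPKM + 1)) passed 1.5-fold. Of the 34 kept members, 6 (17.6%) were higher, which compares with 14.1% of all 9380 kept genes. A single member, Nfkbia (2.94%), was lower, against 9.42% of all kept genes. The 6 higher members were Tlr12, Tlr2, Traf4, Nfkbil2, Irak4 and Traf3ip3, and the other 27 lay within 1.5-fold. With no filter, Nfkbil1 was the one member added, so that 7 of 57 were higher and 1 lower, where 7.12% of all 20207 genes were higher and 5.34% lower. The median log2 change was 0.29 over the kept members and 0.04 over all kept genes, and 25 of the 34 (73.5%) had a positive log2 change, against 54.1% of all kept genes. The counts depend on the scaling: 5 members were higher and 3 lower once both libraries were centred on their medians, 6 and 2 after quantile normalization, and 7 and 3 after removal of a trend on transcript GC content. Over all kept genes the shares higher and lower were 10.2% and 12.8% with centring, 12.1% and 11.0% with quantile normalization, and 13.2% and 8.75% without the GC trend. Centring shifted the median log2 change of all kept genes by −0.11, and with it the member median was 0.18. Median transcript GC content was 53.7% for the kept members and 50.8% for all kept genes, and without the GC trend the medians were 0.17 and 0.07.

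**Figure D1:**
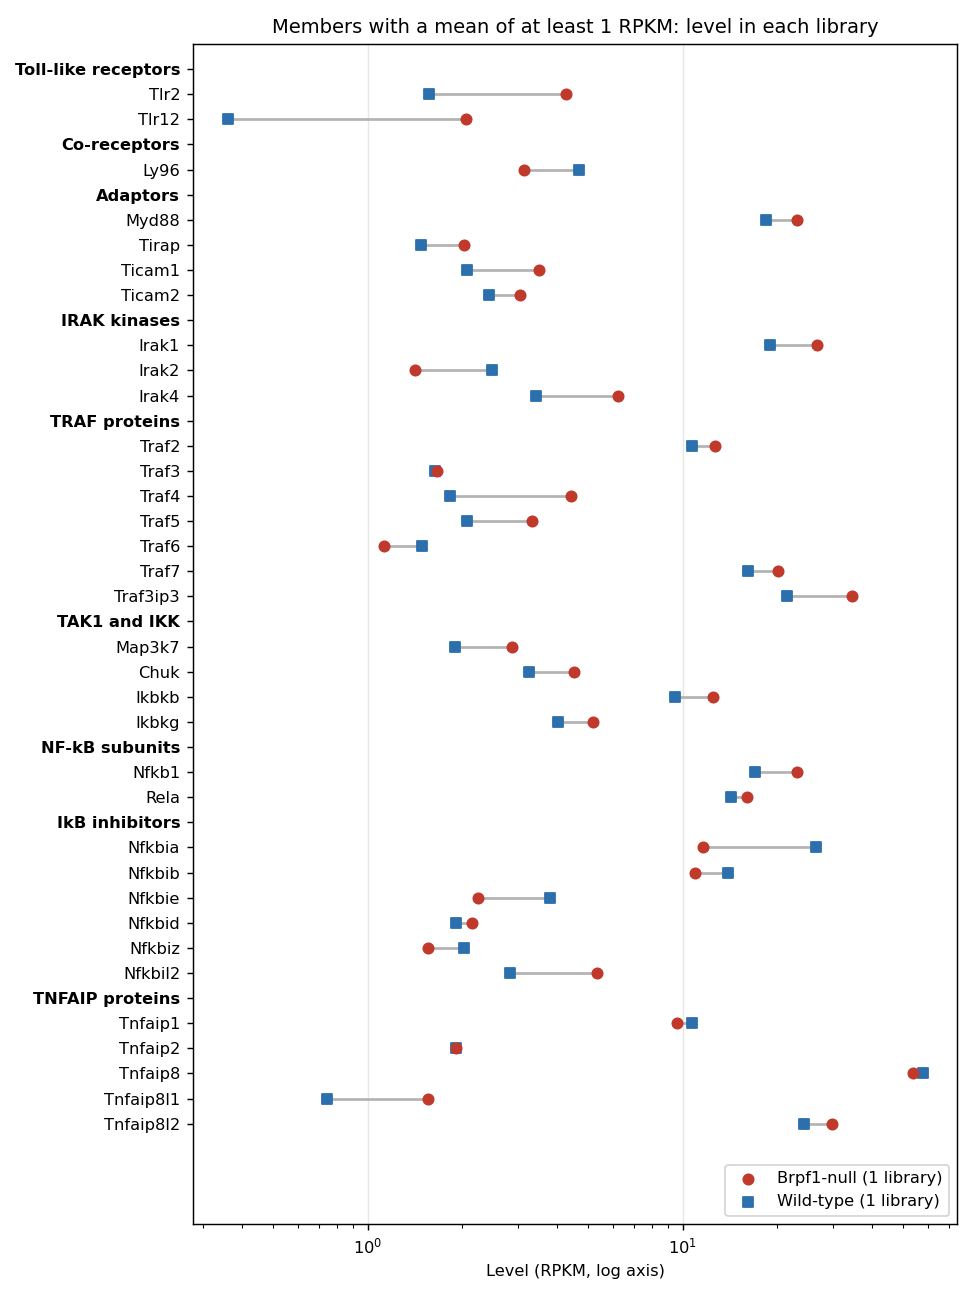
Level of each of the 34 kept members in the Brpf1-null library (circles) and the wild-type library (squares), in RPKM on a log axis, ordered by role in the pathway. Tnfaip8 had the highest level in both libraries, and the wide gaps are those of Tlr12, Tlr2 and Traf4, higher in the Brpf1-null library, and of Nfkbia, lower in it.

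The DNA just before the start sites of the 4 members with the largest absolute log2 changes is shown because NF-kB regulates several of its own pathway genes through such sites. Each sequence is the 250 bases before the RefSeq start site, on the gene's strand, from build GRCm38.p6. Capitals mark matches of the NF-kB consensus decamer, searched on both strands.
Tlr12 (chr4:128618620-128618869, minus strand): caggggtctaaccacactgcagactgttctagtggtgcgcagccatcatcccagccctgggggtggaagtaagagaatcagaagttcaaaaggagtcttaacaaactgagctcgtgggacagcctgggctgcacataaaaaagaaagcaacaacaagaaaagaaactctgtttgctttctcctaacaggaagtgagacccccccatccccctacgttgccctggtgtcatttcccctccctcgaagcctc
Nfkbia (chr12:55492648-55492897, minus strand): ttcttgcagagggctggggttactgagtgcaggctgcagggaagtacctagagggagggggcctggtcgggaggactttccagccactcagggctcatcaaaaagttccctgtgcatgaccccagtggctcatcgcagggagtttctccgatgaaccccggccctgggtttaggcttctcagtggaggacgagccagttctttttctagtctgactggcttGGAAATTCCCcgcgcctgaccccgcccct
Tlr2 (chr3:83841609-83841858, minus strand): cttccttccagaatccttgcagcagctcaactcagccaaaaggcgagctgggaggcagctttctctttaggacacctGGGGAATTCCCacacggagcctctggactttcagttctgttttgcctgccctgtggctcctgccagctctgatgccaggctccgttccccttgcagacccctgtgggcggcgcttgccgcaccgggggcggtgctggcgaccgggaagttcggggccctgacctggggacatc
Traf4 (chr11:78165551-78165800, minus strand): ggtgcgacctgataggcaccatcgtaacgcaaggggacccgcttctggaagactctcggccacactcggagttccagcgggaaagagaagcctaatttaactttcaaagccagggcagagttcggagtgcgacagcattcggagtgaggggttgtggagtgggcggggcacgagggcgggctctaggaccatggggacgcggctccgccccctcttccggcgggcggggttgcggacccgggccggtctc
The Nfkbia window holds 1 match, from 29 to 20 bases before the start, on the opposite strand. The Tlr2 window holds 2 overlapping matches between 173 and 163 bases before the start. No match occurs in the windows of Tlr12 and Traf4, which says only that these letters are not in them. Of the 45 members with a window in the RefSeq table, 11 (24.4%) had a match, against 4.46% of 27025 genes. Matches were found for Tlr2, Tlr3, Traf3, Map3k7, Nfkb2, Rel, Nfkbia, Nfkbie, Nfkbid, Tnfaip3 and Tnfaip8l1. These members went both ways: the kept ones ran from Nfkbia (log2 change −1.12) and Nfkbie (−0.56) to Map3k7 (0.42), Tnfaip8l1 (0.55) and Tlr2 (1.04). Over all 370 kept genes with a match, 14.9% were higher and 7.30% lower, with a median log2 change of 0.08, against 14.2%, 9.22% and 0.04 over the 7086 kept genes without one. A match is a description of the sequence and not a measurement of binding.

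Among the receptors, 2 of 12 passed the filter, and both were higher in the Brpf1-null library. Tlr2, the receptor for bacterial lipopeptides, was at 4.27 RPKM in the Brpf1-null library and 1.57 RPKM in wild-type, 2.72-fold higher (2.19 to 3.43). Here and below, the range in brackets is a 95% counting interval for the ratio of RPKM, which reflects counting error alone, with no allowance for variation among embryos or pools or for PCR copies. Tlr12, which in mice senses the profilin of Toxoplasma together with Tlr11, was at 2.06 RPKM in the Brpf1-null library and 0.36 RPKM in wild-type, 5.71-fold higher (3.74 to 8.90), from about 144 and 27 reads. With a pseudocount of 5 RPKM neither passed 1.5-fold, at log2 changes of 0.50 for Tlr2 and 0.40 for Tlr12. Tlr12 passed the filter on its mean only through the Brpf1-null library.

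The other receptors were low, and 9 of the 12 were under 1 RPKM in both libraries. Tlr1, a partner of TLR2, was at 0.61 RPKM in the Brpf1-null library and 0.26 RPKM in wild-type, 2.33-fold higher (1.29 to 4.28). Its near relative Tlr6, also a TLR2 partner, was at 0.19 and 0.11 RPKM, and its interval of 0.507 to 5.45 included 1, so that no difference was detectable at this depth. The 2 receptors on the lower side were Tlr7, an endosomal sensor of single-stranded RNA, and Tlr4, the lipopolysaccharide receptor. Tlr7 was at 0.52 RPKM in the Brpf1-null library and 1.25 RPKM in wild-type, 2.43-fold lower (1.65 to 3.55). Tlr4 was at 0.63 and 0.97 RPKM, 1.53-fold lower (1.02 to 2.29). Tlr9, which senses CpG DNA, was at 0.12 RPKM in the Brpf1-null library and listed at 0 in wild-type, and Tlr11 was listed at 0 in both. Tlr3, Tlr5, Tlr8 and Tlr13 were at most at 0.26 RPKM in either library. Summed over the 12 receptors, the level was 9.01 RPKM in the Brpf1-null library and 5.002 RPKM in wild-type. That difference lay in Tlr2 and Tlr12, which summed to 6.33 and 1.93 RPKM, while the other 10 summed to 2.68 RPKM in the Brpf1-null library and 3.07 RPKM in wild-type.

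The lipopolysaccharide co-receptors did not follow Tlr2. Ly96 encodes MD-2, the protein that holds lipopolysaccharide on TLR4, and it was at 3.13 RPKM in the Brpf1-null library and 4.70 RPKM in wild-type, 1.499-fold lower, with an interval of 0.978 to 2.33 that included 1. Cd14, which hands lipopolysaccharide to that complex and marks monocytes, was at 0.21 and 0.28 RPKM, from about 8 and 11 reads. At these read numbers no difference was detectable for either gene.

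Markers of myeloid cells differed in the same libraries. Of 21 monocyte and macrophage markers in the table, 16 were kept. In the Brpf1-null library 9 of these (56.2%) were higher and 3 (18.8%) lower, against 14.1% and 9.42% of all kept genes. The summed level of the 21 was 287 RPKM in the Brpf1-null library and 217 RPKM in wild-type. No marker was at 0 in the Brpf1-null library, and Cd163 was listed at 0 in wild-type. Csf1r, the macrophage growth factor receptor, was higher, at 28.8 and 8.31 RPKM. Timd4 was lower, at 0.50 RPKM in the Brpf1-null library and 2.60 RPKM in wild-type. So were C1qa, at 0.50 and 1.875 RPKM, and Vcam1, at 0.86 and 3.53 RPKM. Timd4, C1qa and Vcam1 passed the filter on their mean only through the wild-type library. C1qb, C1qc and Emr1 also had negative log2 changes, within 1.5-fold. Of 8 dendritic cell markers 6 were kept, with 3 (50.0%) higher and 1 (16.7%) lower, against 14.1% and 9.42% of all kept genes. The higher markers were Bst2, at 47.1 RPKM in the Brpf1-null library and 6.68 RPKM in wild-type, Cd74 and H2-Aa. The lower marker, Siglech, was at 0.34 and 2.59 RPKM and passed the filter on its mean only through the wild-type library. Itgax and Zbtb46 were under the filter. The summed level of the 8 was 123.5 RPKM in the Brpf1-null library and 56.6 RPKM in wild-type. Neutrophil markers went both ways: 9 of 10 were kept, with 1 (11.1%) higher and 5 (55.6%) lower, against 14.1% and 9.42% of all kept genes. The higher marker was Mpo, and S100a8 was lower, at 21.4 RPKM in the Brpf1-null library and 75.6 RPKM in wild-type. Lcn2, also lower, was at 0.58 and 3.42 RPKM and passed the filter on its mean only through the wild-type library. The median log2 change of the kept neutrophil markers was −1.22, while their summed level, most of it Mpo, was 848 RPKM in the Brpf1-null library and 668 RPKM in wild-type. The part of these cell markers in the receptor values was not tested.

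The adaptors that couple the receptors to the kinases were all kept, and each had a positive log2 change that did not pass 1.5-fold. Myd88, the adaptor of most Toll-like receptors and of the IL-1 receptor, was the most abundant at 23.1 RPKM in the Brpf1-null library and 18.4 RPKM in wild-type, 1.25-fold higher (1.11 to 1.41). Ticam1 encodes TRIF, the adaptor of TLR3 and of internalised TLR4, and was at 3.49 and 2.07 RPKM, 1.69-fold higher (1.36 to 2.08), which is within 1.5-fold once the pseudocount is added. Tirap, the bridge between MyD88 and TLR2 or TLR4, was at 2.03 RPKM in the Brpf1-null library and 1.47 RPKM in wild-type, with an interval of 0.973 to 1.94 that included 1. Ticam2 (TRAM), which brings TRIF to TLR4, was at 3.05 and 2.44 RPKM. The log2 changes of the 4 adaptors were positive under every scaling tried. Reads of Myd88 and Ticam2 can be shared with neighbours: 11.3% of the exon bases of Myd88 overlap Acaa1a on the opposite strand, and 14.5% of those of Ticam2 overlap Tmed7 on the same strand, in GENCODE M21. Acaa1a was at 9.77 RPKM in the Brpf1-null library and 6.01 RPKM in wild-type, and Tmed7 at 6.74 and 4.74 RPKM.

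Among the IRAK kinases 1 was called higher and none lower. Irak4, the first kinase recruited to MyD88, was at 6.26 RPKM in the Brpf1-null library and 3.43 RPKM in wild-type, 1.83-fold higher (1.56 to 2.14). Twf1, which overlaps 7.87% of its exon bases on the opposite strand, went the other way at 60.1 and 71.6 RPKM. Irak1, the kinase that IRAK4 phosphorylates, was at 26.7 and 18.9 RPKM, 1.41-fold higher (1.28 to 1.56). Irak2, a second substrate kinase that sustains the response, was at 1.41 RPKM in the Brpf1-null library and 2.49 RPKM in wild-type, 1.76-fold lower (1.36 to 2.29). Irak3, also called IRAK-M, an inhibitor of the pathway, was at 0.33 and 0.58 RPKM, 1.75-fold lower (1.02 to 3.09). Tmbim4, which overlaps 5.22% of the exon bases of Irak3 on the opposite strand, was at 51.8 and 61.3 RPKM. With the pseudocount Irak2 was within 1.5-fold at a log2 change of −0.53, and it passed after centring (−0.65) and after removal of the GC trend (−0.60). Irak1bp1, an IRAK1-binding protein, was at 0.58 and 0.55 RPKM.

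Of the TRAF adaptors and ubiquitin ligases, the ones used by Toll-like receptors were not the ones that differed most. Traf6, the ligase that links IRAK kinases to TAK1, was at 1.13 RPKM in the Brpf1-null library and 1.49 RPKM in wild-type, 1.32-fold lower (1.07 to 1.63). Traf3, which serves TRIF signalling and restrains the alternative NF-kB pathway, was at 1.66 and 1.64 RPKM, with a log2 change of 0.01 that turned negative after centring, quantile normalization and removal of the GC trend. Traf4 was at 4.43 RPKM in the Brpf1-null library and 1.82 RPKM in wild-type, 2.43-fold higher (1.89 to 3.16). Traf5, which with TRAF2 serves receptors of the TNF family, was at 3.32 and 2.06 RPKM, 1.61-fold higher (1.11 to 2.41). Traf2 was at 12.7 and 10.7 RPKM and the ligase gene Traf7 at 20.1 and 16.2 RPKM. Traf1 was at 0.12 RPKM in the Brpf1-null library and 0.25 RPKM in wild-type, from about 6 and 14 reads.

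Of the TRAF3-interacting proteins, Traf3ip3, a membrane protein of blood cells, was the most abundant and was at 34.4 RPKM in the Brpf1-null library and 21.4 RPKM in wild-type, 1.61-fold higher (1.38 to 1.88). It was within 1.5-fold after centring, at a log2 change of 0.55. A130010J15Rik, on the opposite strand, overlaps 7.30% of its exon bases and was at 2.36 and 2.14 RPKM. Traf3ip2 (ACT1, the adaptor of the IL-17 receptor) was at 0.89 and 0.32 RPKM, 2.76-fold higher (1.66 to 4.73). Traf3ip1, a protein of cilia, was at 0.79 and 0.36 RPKM, 2.18-fold higher (1.34 to 3.77). Neither of these passed the filter on the mean.

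**Figure D2:**
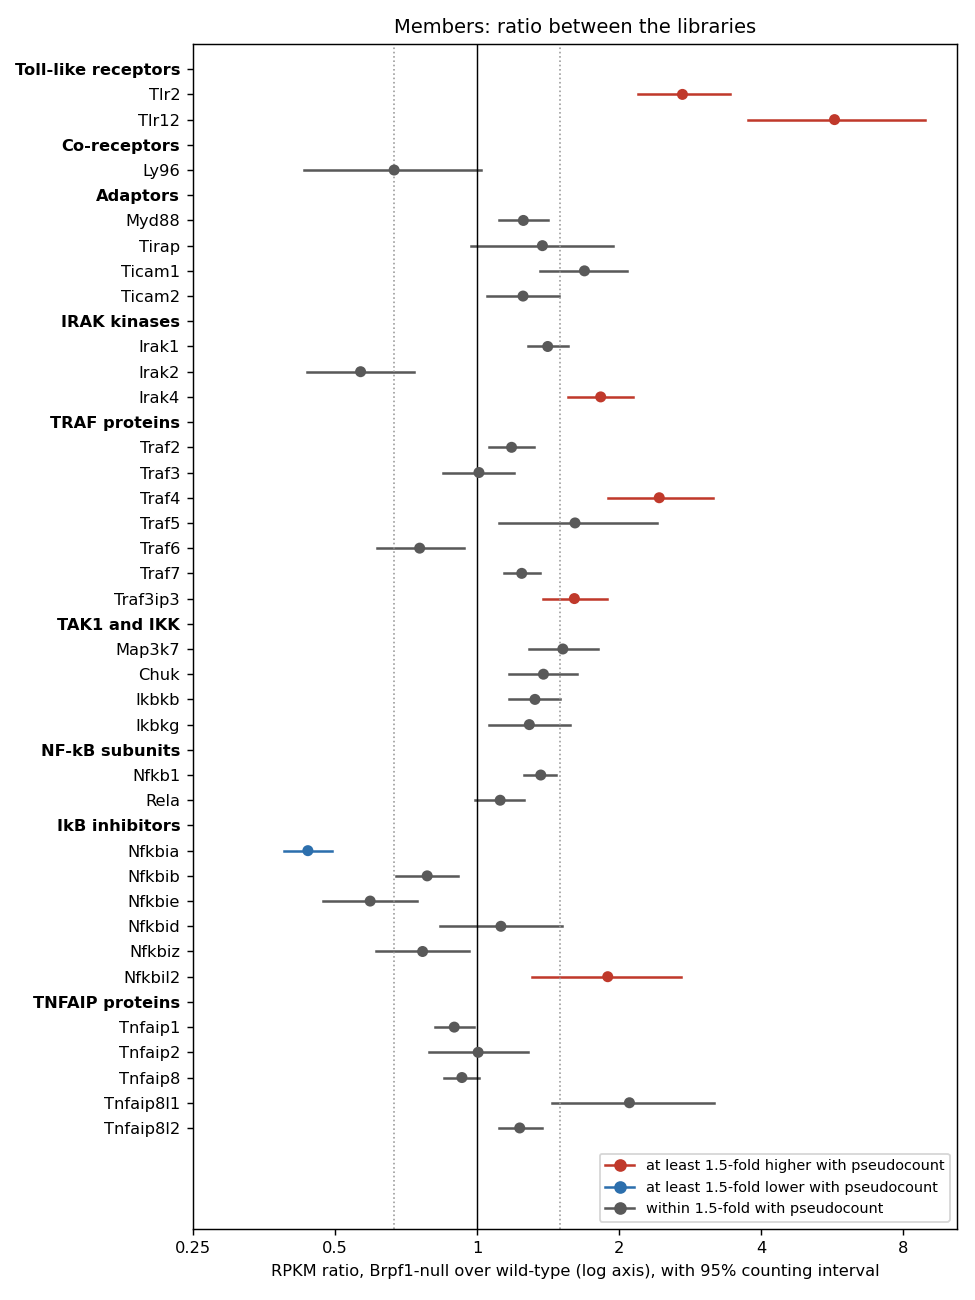
Ratio of RPKM, Brpf1-null over wild-type, for the 34 kept members on a log axis, with 95% counting intervals. Colour gives the call with the pseudocount: 6 higher, 1 lower (Nfkbia) and 27 within 1.5-fold, and the dotted lines stand at 1.5-fold either way without the pseudocount.

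The kinases between TRAF6 and IkB were detected in both libraries, with log2 changes that were positive but did not pass 1.5-fold. Map3k7 encodes TAK1, and was at 2.88 RPKM in the Brpf1-null library and 1.90 RPKM in wild-type, 1.52-fold higher (1.29 to 1.80). Ikbkb, the IKK subunit that phosphorylates IkB, was at 12.5 and 9.44 RPKM, 1.33-fold higher (1.17 to 1.5). Its sister kinase gene Chuk (IKK alpha) was at 4.51 and 3.27 RPKM, 1.38-fold higher (1.17 to 1.63), and Ikbkg (NEMO), the regulatory subunit, at 5.18 and 4.01 RPKM, 1.29-fold higher (1.06 to 1.57). G6pdx, which overlaps 5.15% of the exon bases of Ikbkg on the opposite strand, was at 19.7 and 14.4 RPKM. The log2 change of each of the 4 members stayed positive under every scaling. After removal of the GC trend Map3k7 and Chuk passed, at 0.59 and 0.60. The TAK1-binding proteins differed from each other: Map3k7ip1 (TAB1) was at 6.84 RPKM in the Brpf1-null library and 3.86 RPKM in wild-type, 1.77-fold higher (1.52 to 2.07), while Map3k7ip2 (TAB2) was at 15.3 and 16.7 RPKM.

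NF-kB itself was represented mainly by the p50 and p65 genes. Nfkb1, which encodes p105 and its product p50, was at 23.1 RPKM in the Brpf1-null library and 17.0 RPKM in wild-type, 1.36-fold higher (1.26 to 1.47). Rela (p65) was at 16.0 and 14.3 RPKM, with an interval of 0.990 to 1.26 that included 1 and a log2 change that turned from 0.15 to −0.02 after removal of the GC trend. The remaining subunits were under 1 RPKM in both libraries. Rel (c-Rel) was at 0.38 RPKM in the Brpf1-null library and 0.65 RPKM in wild-type, 1.71-fold lower (1.25 to 2.37), and Nfkb2 (p100 and p52) at 0.47 and 0.79 RPKM, 1.68-fold lower (1.09 to 2.71). Relb, the partner of p52, was at 0.82 and 0.42 RPKM, 1.94-fold higher (1.12 to 3.42).

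Of the kept genes that encode IkB proteins, Nfkbia was called lower and none higher. Nfkbil2, which its older symbol brought under the rule, was called higher and is Tonsl, described below. Nfkbia encodes IkB alpha, the classical inhibitor and a rapid target of NF-kB, and its window above holds the marked decamer. It was at 11.6 RPKM in the Brpf1-null library and 26.5 RPKM in wild-type, 2.28-fold lower (2.03 to 2.57), from about 405 and 983 reads. Its log2 change of −1.12 ran from −1.24 to −0.92 over the scalings and pseudocounts tried, and Nfkbia was the one member past 1.5-fold under every alternative. Nfkbie (IkB epsilon) was at 2.25 RPKM in the Brpf1-null library and 3.79 RPKM in wild-type, 1.69-fold lower (1.34 to 2.12). Nfkbib (IkB beta) was at 10.9 and 13.9 RPKM, 1.28-fold lower (1.10 to 1.49), and Ccer2 overlaps 14.5% of its exon bases on the opposite strand. Sirt2, which overlaps 1.94% of the exon bases of Nfkbib on the opposite strand, was at 18.1 and 23.35 RPKM. With the pseudocount Nfkbie was at a log2 change of −0.56, within 1.5-fold, and it passed after centring (−0.67), quantile normalization (−0.63) and removal of the GC trend (−0.71).

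RPKM is scaled by length, so levels of different genes can be set side by side, but only roughly. The reads were oligo-dT-primed, and the transcript lengths used for the deposited values are not known. Summed over IkB alpha, beta and epsilon the level was 24.8 RPKM in the Brpf1-null library and 44.2 RPKM in wild-type, while the 5 NF-kB subunits summed to 40.8 RPKM in the Brpf1-null library and 33.1 RPKM in wild-type. The ratio of these inhibitor transcripts to subunit transcripts was 0.607 in the Brpf1-null library and 1.33 in wild-type. Nfkb1 and Nfkb2, which also encode p105 and p100, were counted as subunits only. The ratio serves to compare the libraries, and its place above or below 1 is not interpreted. Nfkbia made up 46.8% of the inhibitor sum in the Brpf1-null library and 59.9% in wild-type, and without it Nfkbib and Nfkbie summed to 13.2 and 17.7 RPKM. These are transcript levels, and IkB protein was not measured.

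**Figure D3:**
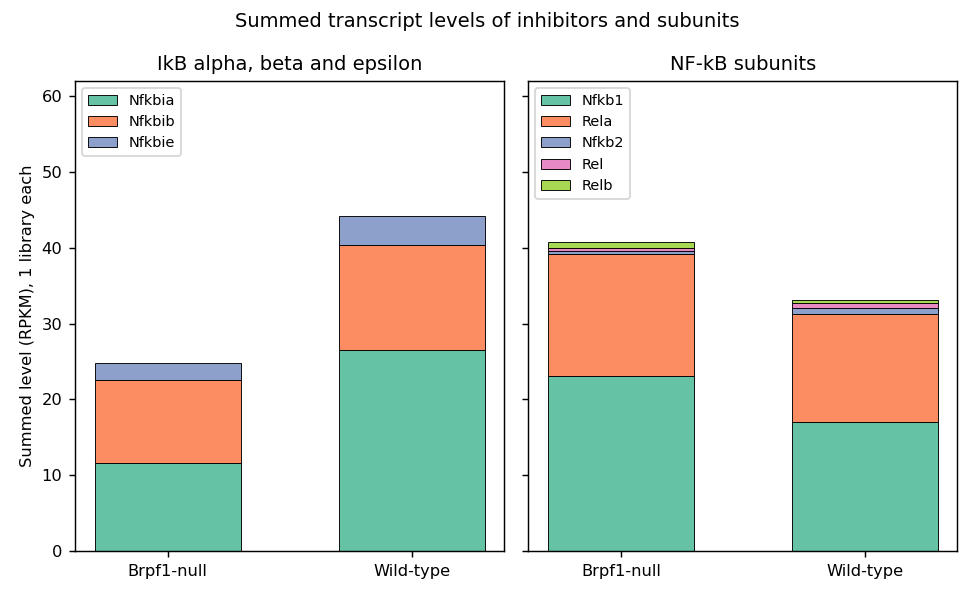
Stacked bars of the RPKM of IkB alpha, beta and epsilon (left) and of the 5 NF-kB subunits (right), with the Brpf1-null library beside the wild-type library and 1 library per bar. The inhibitor bar is 24.8 RPKM in the Brpf1-null library against 44.2 RPKM in wild-type, and the subunit bar 40.8 RPKM against 33.1 RPKM.

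The atypical IkB proteins, which act in the nucleus, were low. Nfkbiz (IkB zeta), a coactivator of secondary response genes, was at 1.55 RPKM in the Brpf1-null library and 2.03 RPKM in wild-type, 1.30-fold lower (1.04 to 1.64). Nfkbid was at 2.15 and 1.91 RPKM, with an interval of 0.833 to 1.51 that included 1 and a log2 change that turned to −0.06 after removal of the GC trend. Nfkbil2 is the older symbol of Tonsl, a gene of replication fork repair whose protein carries ankyrin repeats, and it was at 5.36 and 2.83 RPKM, 1.89-fold higher (1.31 to 2.70). It was within 1.5-fold after removal of the GC trend, at a log2 change of 0.56. Vps28, far more abundant at 173 and 199 RPKM, overlaps 1.72% of the exon bases of Nfkbil2 on the same strand. Nfkbil1 was at 0.83 RPKM in the Brpf1-null library and 0.17 RPKM in wild-type, from about 26 and 6 reads, and 8.25% of its exon bases overlap Atp6v1g2, which was at 1.48 and 0.68 RPKM.

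The TNFAIP genes share a symbol and do not form a single protein family, although Tnfaip8 and the Tnfaip8-like genes are related. None passed 1.5-fold with the pseudocount. Tnfaip3 encodes A20, the ubiquitin-editing enzyme that ends NF-kB signalling. It was at 0.51 RPKM in the Brpf1-null library and 0.70 RPKM in wild-type, and its interval of 0.810 to 2.31 for the fold lower included 1. Tnfaip8, a regulator of cell survival, had the highest level of all members at 53.7 and 57.9 RPKM, with an interval of 0.988 to 1.17 for the fold lower. Its relative Tnfaip8l2 (TIPE2), a brake on Toll-like and T-cell receptor signalling, was at 29.8 RPKM in the Brpf1-null library and 24.2 RPKM in wild-type, 1.23-fold higher (1.11 to 1.37).

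Tnfaip8l1 was at 1.56 RPKM in the Brpf1-null library and 0.74 RPKM in wild-type, 2.10-fold higher (1.44 to 3.17), which the pseudocount brings within 1.5-fold, and it passed the filter on its mean only through the Brpf1-null library. Tnfaip1, an adaptor of cullin ubiquitin ligases, was at 9.58 and 10.7 RPKM. Tnfaip2 was at 1.92 and 1.91 RPKM, with a log2 change of 0.00 that turned negative after centring, quantile normalization and removal of the GC trend. Tnfaip6 was listed at 0 in the Brpf1-null library and at 0.03 RPKM in wild-type, and Tnfaip8l3 was listed at 0 in both.

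**Figure D4:**
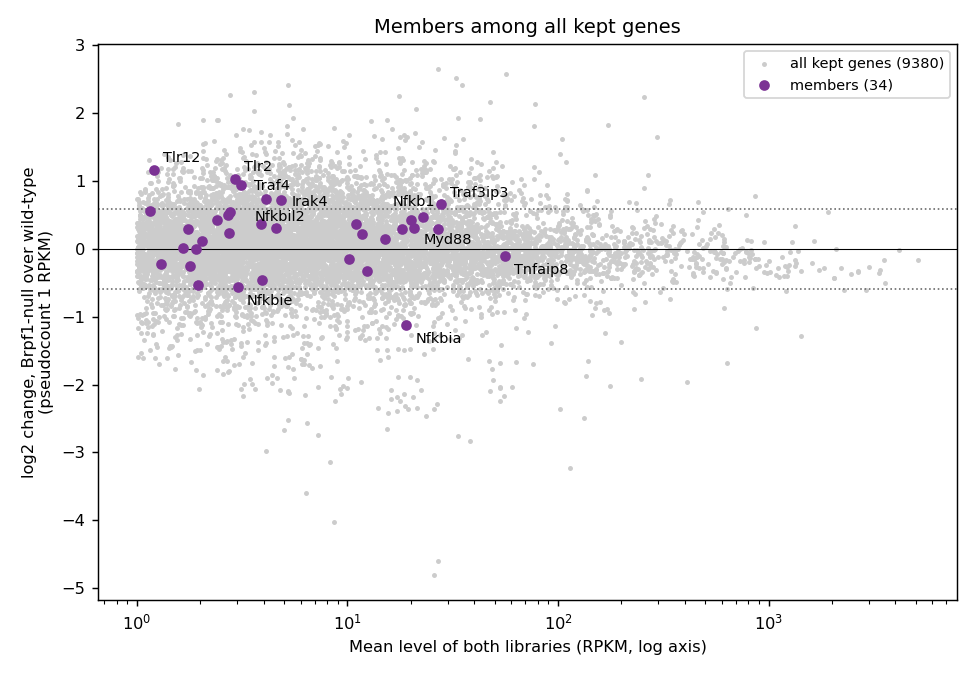
Log2 change, Brpf1-null over wild-type with a pseudocount of 1 RPKM, against the mean level in RPKM on a log axis, for all 9380 kept genes (grey) and the 34 kept members (purple). The dotted lines mark 1.5-fold, and the members lie inside the cloud of all genes, with Nfkbia at −1.12 the lowest and Tlr12 at 1.17 the highest.

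Other genes of the pathway, from a list of 69 receptors, chaperones, ubiquitin enzymes and transcription factors outside the symbol rule, gave 54 kept genes. Of these 7 (13.0%) were higher, 3 (5.56%) were lower and 44 lay within 1.5-fold, both shares below the 14.1% and 9.42% of all kept genes, with a median log2 change of 0.22. After centring the split was 7 higher and 6 lower, against 10.2% and 12.8% of all kept genes. The genes named next are those with the largest changes. Irf5, a transcription factor that MyD88 signalling activates, was at 20.9 RPKM in the Brpf1-null library and 5.93 RPKM in wild-type, 3.52-fold higher (3.05 to 4.10). Irf7, its counterpart downstream of TLR7 and TLR9, was at 8.14 and 4.25 RPKM.

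The other genes named from that list as higher by largest change were Unc93b1, Ly86 and Ltbr. Tnip1 was also called higher, and so was Malt1, at 1.96 RPKM in the Brpf1-null library and 0.79 RPKM in wild-type. Malt1 passed the filter on its mean only through the Brpf1-null library. Unc93b1, the chaperone that carries nucleic acid-sensing receptors to endosomes, was at 25.01 RPKM in the Brpf1-null library and 11.1 RPKM in wild-type, 2.25-fold higher (1.98 to 2.56). Ly86 encodes MD-1, the partner of the TLR-like protein CD180, and was at 61.1 and 25.1 RPKM, 2.43-fold higher (2.22 to 2.67). Ltbr, a TNF-family receptor that feeds the alternative NF-kB pathway, was at 28.6 and 15.9 RPKM, 1.80-fold higher (1.65 to 1.97). Other chaperones and partners of the receptors lay within 1.5-fold, with log2 changes of 0.49 for Cnpy3, 0.29 for Hsp90b1 and 0.34 for Cd180, the partner of MD-1. Monocytes and dendritic cells are among the cells that express Irf5, Ly86 and Unc93b1. Most of their kept markers that passed 1.5-fold were higher, as given above. Expression of these genes in other cell types was not compared. All 7 kept B-cell markers were lower, against 9.42% of all kept genes. The part of any of these cells in the values was not tested.

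The lower genes of that list were Sharpin, Cd36 and Tnip3. Sharpin, a subunit of the linear ubiquitin ligase that activates NEMO, was at 6.18 RPKM in the Brpf1-null library and 15.5 RPKM in wild-type, 2.50-fold lower (2.06 to 3.04). Cd36, a scavenger receptor that assists TLR2, was at 0.24 and 1.79 RPKM, 7.42-fold lower (4.34 to 14.3). Tnip3, an A20-binding inhibitor, was at 0.35 and 1.86 RPKM, 5.38-fold lower (2.91 to 11.0). Its relatives Tnip1 and Tnip2, named after their values were seen, went the other way. Tnip1 was called higher, at 9.01 RPKM in the Brpf1-null library and 4.8 RPKM in wild-type, 1.88-fold (1.63 to 2.16). Tnip2 was at 5.22 and 3.27 RPKM, within 1.5-fold with the pseudocount. Cd36 and Tnip3 passed the filter on their mean only through the wild-type library.

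Genes known as NF-kB targets went both ways. Of 44 listed, 22 were kept, and 5 (22.7%) were higher, 4 (18.2%) lower and 13 within 1.5-fold, against 14.1% higher and 9.42% lower over all kept genes. Their median log2 change was −0.03. After centring 3 were higher and 6 lower, against 10.2% and 12.8% of all kept genes. The higher ones included the chemokine genes Ccl5, at 9.23 RPKM in the Brpf1-null library and 1.35 RPKM in wild-type (6.83-fold, 4.07 to 12.1), and Ccl3, at 26.8 and 13.2 RPKM (2.03-fold, 1.73 to 2.38). Ier3, an early response gene, was at 3.63 and 1.396 RPKM, the adhesion receptor gene Icam1 at 11.1 and 6.76 RPKM, and the cyclin gene Ccnd1 at 18.1 and 11.0 RPKM. After centring, Ccnd1 (log2 change 0.55) and Icam1 (0.53) were within 1.5-fold. Icam1 was also within it after quantile normalization (0.56) and removal of the GC trend (0.51). The lower ones included the adhesion receptor gene Vcam1, at 0.86 RPKM in the Brpf1-null library and 3.53 RPKM in wild-type, a gene that is also among the macrophage markers above. The complement genes Cfb, at 2.23 and 6.06 RPKM, and C3, at 2.28 and 4.07 RPKM, were also lower. So was the chemokine gene Ccl4, named after its values were seen to complete the 4, at 19.5 RPKM in the Brpf1-null library and 29.9 RPKM in wild-type, so the chemokine genes went both ways. Vcam1 passed the filter on its mean only through the wild-type library. Hepatocytes make both complement proteins, and hepatocyte markers were lower in the same library, as given above. Their part in these values was not tested.

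**Figure D5:**
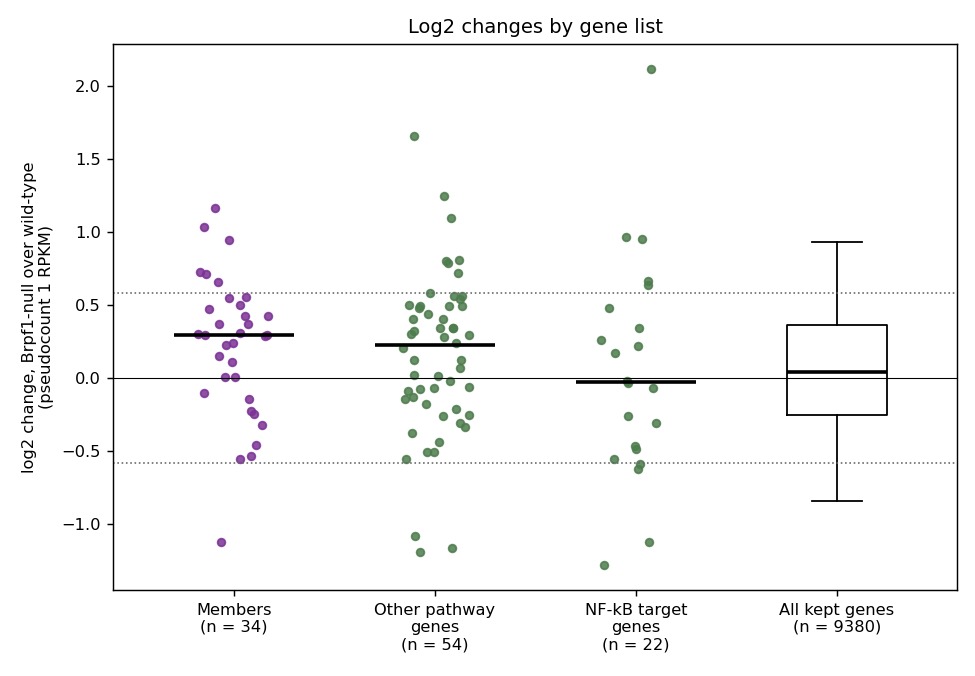
Log2 change, Brpf1-null over wild-type with a pseudocount of 1 RPKM, of each kept gene in 3 lists (points; thick line, median) and of all kept genes (box, quartiles and median; whiskers, 5th to 95th percentile). The medians are 0.29 for members, 0.22 for other pathway genes, −0.03 for NF-kB target genes and 0.04 for all kept genes.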

How the data were processed

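LSK cells of Brpf1-null and wild-type E14.5 fetal livers were measured by oligo-dT-primed RNA sequencing, per the labels' protocols. Reads were aligned with TopHat to mm9, per the submitters' processing notes; no source used here gives the counting program, annotation or strand setting. Values were deposited by the authors as RPKM for pair 1 and FPKM for pair 2, per the file headers. The tables held the same values (0 of 20207 differed per genotype), so they were treated as 1 library per genotype, whether they stem from 1 pair or a merge of both. The deposited fold changes, a ratio with wild-type on top, run opposite to the log2 changes computed here and were not used.

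The design, which planned limma for differing pairs, calls for description with 1 library. Log2 changes used a pseudocount of 1 RPKM, and genes with a mean under 1 RPKM were left out. Library sizes were found as the sizes at which low values become whole reads: 69.4% of 510 values in the Brpf1-null library and 67.7% of 536 in wild-type came within 0.1 read of a whole number, against 34.3% and 30.8% with sizes raised by 5%. Their ratio (1.06) came from value ratios of 1203 low genes. Transcript lengths and GC content came from GENCODE M21 (GRCm38), matched directly for 17518 symbols and by RefSeq synonym for 2302, so read numbers are approximate. Counting intervals are exact Clopper-Pearson (scipy 1.17.1), and the steps were tested on simulated data. The simulated reads used the same transcript lengths as the estimates. They therefore cannot test the unknown lengths behind the deposited values. Promoter windows came from RefSeq (GRCm38.p6). Every kept member is given with its values, and up to 8 genes of each other list, by largest absolute log2 change. Members and lists were chosen with earlier results of these data known. Alternatives changed the pseudocount, the filter, the scaling and the GC trend.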

Additional observations from a re-analysis of the deposited data

How the results depend on the processing

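No paired analysis was possible because the tables of both pairs hold the same values, and for the same reason leaving out a replicate was not run. The count of lower members was 3 with a pseudocount of 0.1 RPKM, 3 with centring, 2 with quantile normalization and 3 without the GC trend. The count of higher members was 0 with a pseudocount of 5 RPKM and 1 at a mean of 5 RPKM or more, which 13 members reached. With a pseudocount of 0.1 RPKM, 18.6% of all kept genes were higher and 12.4% lower. With 5 RPKM these shares were 5.91% and 4.19%, and among all genes at a mean of 5 RPKM or more 14.3% and 8.71%. The shares for the other settings are given above. Among other pathway genes, 13 were higher and 5 lower with a pseudocount of 0.1 RPKM, 4 and 1 with 5 RPKM, and 1 was lower at a mean of 5 RPKM or more, 6 with centring and 5 with quantile normalization. Among NF-kB target genes, 2 were higher and 1 lower with a pseudocount of 5 RPKM, 1 was lower at a mean of 5 RPKM or more, and 3 were higher after centring. Their median turned from −0.03 to 0.00 with no filter and to 0.30 at a mean of 5 RPKM or more. A larger pseudocount shrinks every change and a higher minimum leaves fewer genes, by construction; the cause of the other differences was not tested. Under the 7 alternatives, no called member changed sign, and neither did any of the genes named by largest change from the other lists. Cell markers, Map3k7ip1, Map3k7ip2, members under the filter and list genes named outside that ranking were not recomputed. Of the 34 kept members, 4 (Traf3, Tnfaip2, Rela and Nfkbid) changed sign under at least 1, and none of these was past 1.5-fold. Without replicates, depth limits what can be said of the 23 members under the filter, which rest on at most 115 reads in either library.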
